A study of Mus musculus with 2 samples.

Results

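*Reg3g*, *Retnla*, *Tff1* and *Tff2*, 4 of the 479 genes on the panel, encode secreted proteins of the epithelial defense. They were followed in Xenium In Situ data from 1 RPR2 lung section and 1 CRPR2 lung section of mice with small cell lung cancer (SCLC). The genes were chosen by name with earlier results of these data known. In those results, the level of *Reg3g* in tumor cells had one of the largest differences between the sections towards RPR2, and *Retnla* one towards CRPR2. The differences between sections are therefore given as descriptions.

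RPR2 mice carry *Rb1*lox/lox, *Trp53*lox/lox and *Rbl2*lox/lox alleles, and their tumors start when adenoviral Cre is given into the trachea at 10 weeks of age. CRPR2 mice carry the same alleles with a *Cracd* KO in addition, which the study describes as germline, while the labels also name adenoviral particles called Ad-Cracd-Cre, so whether the airway and immune cells of this section also lack *Cracd* was not settled here. Deletion of *Rb1*, *Trp53* and *Rbl2* is shared by both groups. Per the methods of the study, lungs were collected 6 months after Cre, mice of both sexes were used, and the sections came from a single paraffin block on 1 slide. With 1 section per genotype, genotype, mouse and section cannot be told apart. All intervals below are 95% intervals that cover counting error only, and no test was run.

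REG3G is a C-type lectin of mucosal surfaces that binds and kills Gram-positive bacteria. RETNLA (also known as RELM alpha or FIZZ1) is a small cysteine-rich protein made by airway epithelium in allergic inflammation and by macrophages exposed to interleukin 4 or interleukin 13, through STAT6. Trefoil factors are small, protease-resistant peptides packed with mucins, which aid repair of the epithelium. TFF1 and TFF2 are best known from the stomach, and TFF3 from the goblet cells of the gut. In the RefSeq annotation (GRCm38.p6), *Tff2* and *Tff1* lie beside each other on chromosome 17, with 17112 bases between them, whereas *Reg3g* is on chromosome 6 and *Retnla* on chromosome 16.

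Promoter sequences from RefSeq (GRCm38.p6) were matched for 2 of the 4 genes, *Reg3g* and *Retnla*. They are shown because the cells with the most transcripts of these 2 genes differed. Each sequence is the 250 bases before the start site, 5′ to 3′ on the strand of the gene, chr6:78468875-78469124 (minus strand) for *Reg3g* and chr16:48842359-48842608 (plus strand) for *Retnla*. Capitals mark matches on either strand to TATAAA (the TATA box), the STAT motifs (TTC and GAA with a spacer of 3 or of 4 bases between them) and TTGCNNAA (a C/EBP-type motif).
Reg3g: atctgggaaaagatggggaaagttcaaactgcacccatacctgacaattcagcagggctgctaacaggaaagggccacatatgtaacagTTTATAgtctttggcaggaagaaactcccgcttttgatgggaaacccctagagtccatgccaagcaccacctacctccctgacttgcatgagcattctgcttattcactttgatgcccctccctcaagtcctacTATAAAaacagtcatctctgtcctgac
Retnla: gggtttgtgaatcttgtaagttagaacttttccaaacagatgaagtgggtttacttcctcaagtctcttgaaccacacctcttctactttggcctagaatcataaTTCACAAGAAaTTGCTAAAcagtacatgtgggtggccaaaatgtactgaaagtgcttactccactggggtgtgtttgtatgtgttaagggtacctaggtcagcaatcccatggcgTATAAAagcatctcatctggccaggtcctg
A TATA box began 27 bases before the start site of *Reg3g* and 30 bases before that of *Retnla*. The *Retnla* window also held TTCACAAGAA, the STAT motif with a spacer of 4 bases, 145 bases before the start, followed by the C/EBP-type match TTGCTAAA. The *Reg3g* window held a second TATAAA on the opposite strand and no match to these STAT or C/EBP-type letters. Among 32851 RefSeq windows of the same length, TATAAA was found in 12.4%, the STAT motif with a spacer of 4 bases in 5.85%, that with a spacer of 3 in 7.02% and TTGCNNAA in 9.56%. These matches are letters in a window and were not tested for binding.

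Of 154818 cells in the RPR2 section and 342845 in the CRPR2 section, 152915 and 340609 had at least 20 gene transcripts and were kept, with a median of 101 transcripts in each. A cell was placed in the tumor gate if it held at least 4 transcripts of *Chga*, *Chgb*, *Scg5*, *Snap25* and *Celf3*, genes of neuroendocrine cells and neurons. Any other cell went to the class with the most marker transcripts, again at least 4. Levels are given as CPM, the transcripts of a gene as parts of 1000000 gene transcripts, after pooling all cells of a class. The tumor gate held 13782 RPR2 cells and 160674 CRPR2 cells, and the airway-secretory gate, set by *Scgb3a1*, *Scgb3a2*, *Muc5b*, *Hp* and 5 further genes of club and goblet cells, held 13952 and 32814. *Hp* was not particular to these cells. It had 56373 transcripts in the airway-secretory gate and 23139 in the gate of AT2 cells in RPR2, and 128588 and 69707 in CRPR2. The tumor gate held 8420 *Hp* transcripts in RPR2 and 161320 in CRPR2. *Scgb3a2* had 163282 transcripts in the airway-secretory gate and 19801 in the tumor gate of RPR2, and 222134 and 248528 in CRPR2. For each of the 10 classes with at least 200 cells in both sections, the 10 genes with the highest ratio to all other cells held no marker of another gate. Cells were assigned by these same markers, so this is no separate check of the gates. Basal cells had no gate, and their 2 panel markers, *Krt5* and *Aqp3*, were among these 10 genes for the airway-secretory gate of CRPR2. *Tff2* and *Reg3g* were themselves among these 10 genes for the airway-secretory gate of both sections, and its counts of them are a description.

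The airway-secretory gates of the sections were not alike. In RPR2, its cells had a median of 4 transcripts of ciliated markers, and *Foxj1*, the master regulator of motile cilia, reached 10011 CPM. In CRPR2, 43.4% of its cells had no tumor marker transcript, against 90.9% in RPR2. Cells were segmented by expansion of the nuclei, and their positions were not used here. The part that neighboring cells have in the counts of a cell was not tested. The 20 negative control probes were at most at 9.93 CPM (RPR2) and 8.43 CPM (CRPR2), and 8 cell barcodes were shared by the sections.

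*Reg3g* was a gene of airway cells in both sections. In airway-secretory-gate cells it stood at 12162 CPM (11990 to 12336) in RPR2 and 4746 CPM (4675 to 4819) in CRPR2. In ciliated-gate cells it stood at 5931 CPM (RPR2) and 9818 CPM (CRPR2). The airway-secretory gate held 64.3% of all *Reg3g* transcripts of the RPR2 section and the ciliated gate 18.4%, and in CRPR2 these shares were 65.1% and 13.8%. AT2-gate cells, the surfactant-making cells of the alveoli, had 96.5 CPM and 96.2 CPM, and endothelial-gate cells 112 CPM and 141 CPM. Among classes with at least 200 cells, tumor-gate cells in RPR2 (1554 CPM) and neutrophil-gate cells in CRPR2 (506 CPM, 29 transcripts) came next after the airway classes. The interval of the latter (339 to 727) overlapped those of mural-gate cells (371 CPM, 332 to 414) and fibroblast-gate cells (369 CPM, 342 to 397). Further down the order, the intervals of fibroblast-, T cell- and macrophage-gate cells overlapped in RPR2, as did those of AT2- and endothelial-gate cells, the lowest. In CRPR2, those of endothelial-, tumor- and T cell-gate cells overlapped, as did those of macrophage- and AT2-gate cells, the lowest.

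The *Reg3g* transcripts lay in a minority of the airway-secretory-gate cells. In RPR2, 31.4% of the cells had at least 1 transcript (24.9% after each cell was thinned to 50 transcripts), and 1501 of 13952 cells had 5 or more. In CRPR2, 9.66% had at least 1 (8.19% after thinning), and 1331 of 32814 cells had 5 or more. The count per cell reached 38 in RPR2 and 41 in CRPR2, and 497 and 507 cells had 10 or more. In endothelial-gate cells, which should lack the gene, the share was 1.00% in RPR2 and 1.11% in CRPR2 (0.513% and 0.586% after thinning), at median depths of 102 and 103 transcripts against 107 and 97 in the airway-secretory gate.

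*Tff2* was, like *Reg3g*, highest in the airway classes of both sections. It stood at 9092 CPM (8943 to 9242) in RPR2 and 4158 CPM (4091 to 4225) in CRPR2 in airway-secretory-gate cells, and at 3098 CPM and 3533 CPM in ciliated-gate cells. The airway-secretory gate held 76.6% of the *Tff2* transcripts of the RPR2 section and 69.7% of those of the CRPR2 section. Endothelial-gate cells had 13.7 CPM and 36.0 CPM, and macrophage-gate cells 19.9 CPM and 23.5 CPM. After thinning, 23.5% of airway-secretory-gate cells in RPR2 and 10.99% in CRPR2 had a *Tff2* transcript, against 0.0625% and 0.167% of endothelial-gate cells. In AT2-gate cells *Tff2* stood at 31.2 CPM (RPR2) and 172 CPM (CRPR2), with a log2 ratio of CRPR2 over RPR2 of 2.47 (2.09 to 2.87). That of *Reg3g* in this gate was -0.004 (-0.26 to 0.26).

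*Retnla* had a different distribution, with a source outside the epithelium. In RPR2 it was highest in macrophage-gate cells, at 14064 CPM (13675 to 14462), and in CRPR2 in ciliated-gate cells, at 11119 CPM (10778 to 11468). Airway-secretory-gate cells had 2337 CPM (2262 to 2414) in RPR2 and 8223 CPM (8128 to 8318) in CRPR2. Ciliated-gate cells had 1176 CPM in RPR2, and macrophage-gate cells 3553 CPM in CRPR2. AT2-gate cells had 545 CPM and 2932 CPM, fibroblast-gate cells 1486 CPM and 1541 CPM, and endothelial-gate cells 169 CPM and 469 CPM. In RPR2, macrophage-gate cells held 30.4% of the *Retnla* transcripts of the section and airway-secretory-gate cells 22.6%. In CRPR2, the macrophage share was 5.85%, and airway-secretory-, tumor- and AT2-gate cells held 40.2%, 19.8% and 14.7%.

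Airway-secretory-gate cells with many *Retnla* transcripts were mostly in the CRPR2 section. In RPR2, 101 of 13952 cells had 5 or more and 7 had 10 or more. In CRPR2, 1883 of 32814 cells had 5 or more and 434 had 10 or more. After thinning, 9.23% of airway-secretory-gate cells in RPR2 and 21.3% in CRPR2 had a transcript, against 0.686% and 1.96% of endothelial-gate cells.

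*Tff1* was at the level of background in most classes. It had 151 transcripts in the RPR2 section (9.27 CPM) and 418 in the CRPR2 section (11.2 CPM), and ranked 454 and 444 of 479 genes. In airway-secretory-gate cells, 15 transcripts gave 9.54 CPM in RPR2 and 29 gave 8.21 CPM in CRPR2, near the highest negative control probe of each section. None of the 3199 ciliated-gate cells of CRPR2 had a transcript, which allows a share of cells with a transcript of up to 0.0938% (3 counts of the total). *Tff3*, the trefoil factor of goblet cells, had 4.79 CPM (RPR2) and 3.19 CPM (CRPR2).

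The highest level was in the T cell gate of CRPR2, with 231 CPM (154 to 334) from 28 transcripts, and that of RPR2 had 97.2 CPM (35.7 to 212) from 6 transcripts. These lay in 4 of 745 and 14 of 1435 cells, with up to 3 and 6 in a cell. The highest negative control probe in this gate was at 48.6 CPM in RPR2, within the interval of *Tff1* there, and at 8.26 CPM in CRPR2. Fibroblast-gate cells of CRPR2 were also above the highest probe in their gate (7.34 CPM), with 17.8 CPM (12.3 to 24.9) from 34 transcripts. Of the 15 CRPR2 cells with 2 or more *Tff1* transcripts, 6 were in the T cell gate, and the 1 such cell of RPR2 was too. None of the 14 CRPR2 cells had *Cd8a*, 12 had *Ctla4* and 10 had *Pdcd1*, both inhibitory receptors. Of the 4 RPR2 cells, 0 had *Cd8a*, 3 had *Ctla4* and 0 had *Pdcd1*. Among the other T cell-gate cells of CRPR2, 30.8% had *Cd8a*, 49.3% *Ctla4* and 37.4% *Pdcd1*, and in RPR2 the shares were 34.4%, 24.2% and 17.0%. *Ctla4* and *Cd8a* are also markers of this gate, and these cells were looked at after the values were seen.

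**Figure D1:**
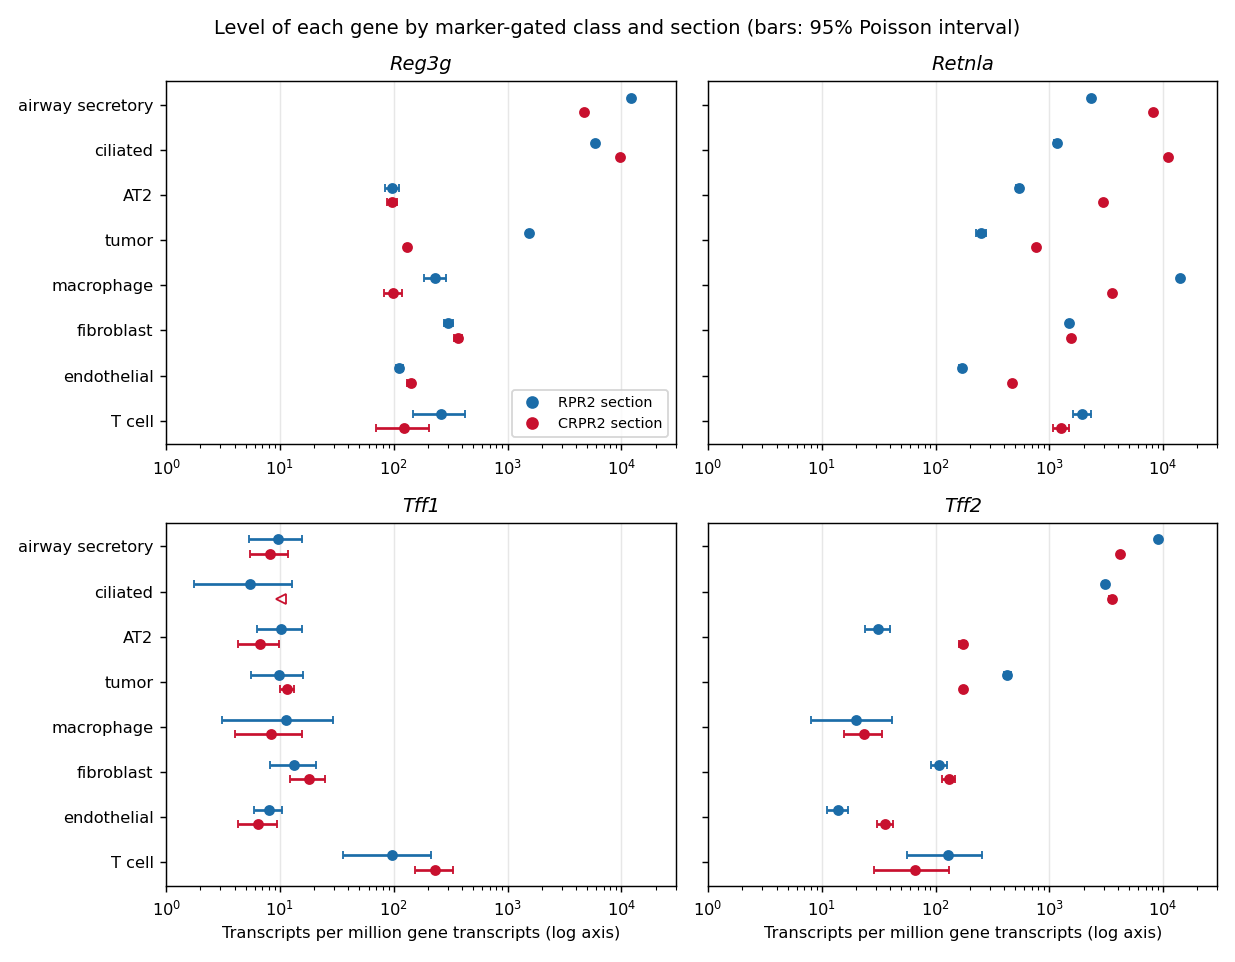
Level (CPM, log axis) of *Reg3g*, *Retnla*, *Tff1* and *Tff2* in 8 marker-gated classes of the RPR2 section (blue) and the CRPR2 section (red), with 95% Poisson intervals, and an open triangle at the upper bound where no transcript was counted. *Reg3g* and *Tff2* were highest in the 2 airway classes of both sections, *Retnla* was also at 14064 CPM in RPR2 macrophage-gate cells, and *Tff1* was highest in the T cell gate, at 231 CPM in CRPR2.

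Between the sections, the log2 ratio of CRPR2 over RPR2 in airway-secretory-gate cells was -1.36 (-1.39 to -1.33) for *Reg3g*, -1.13 (-1.16 to -1.10) for *Tff2*, 1.81 (1.77 to 1.86) for *Retnla* and -0.22 (-1.16 to 0.79) for *Tff1*. The interval of *Tff1* held 0. Of 321 genes that reached 100 CPM in either section, 34.0% differed by 2-fold or more towards CRPR2 and 13.4% towards RPR2, and their median log2 ratio was 0.42. In airway-secretory-gate cells with no tumor or ciliated marker transcript (1373 cells in RPR2 and 7485 in CRPR2), the log2 ratio was -1.64 for *Reg3g* (7006 and 2256 CPM), -0.79 for *Tff2* (4647 and 2691 CPM) and 1.40 for *Retnla* (2620 and 6912 CPM). This set may still hold tumor cells that lack these markers. *Mki67*, a gene of cycling cells, was at 517 CPM (RPR2) and 6310 CPM (CRPR2) in the whole gate, and *Upk3a*, a uroplakin, at 395 and 8564 CPM. In cells of the set with 3 or more *Retnla* transcripts and no *Reg3g*, *Mki67* was at 281 and 7151 CPM. The part of such tumor cells in the ratios was not tested. The direction between sections was not the same in all classes. In ciliated-gate cells, the log2 ratio was 0.73 (0.67 to 0.79) for *Reg3g*, 0.19 (0.09 to 0.29) for *Tff2* and 3.24 (3.14 to 3.34) for *Retnla*, and in macrophage-gate cells it was -1.99 (-2.04 to -1.93) for *Retnla*.

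Other genes of mucosal secretion were taken from a list of mucins, secretoglobins and antimicrobial proteins, of which 22 were on the panel and 12 had at least 100 CPM in airway-secretory-gate cells of either section. *Muc16* and *Muc2* passed this minimum through CRPR2 alone, so their direction follows from it, and no count over the list is given. Among the other members, *Wfdc2* was the 1 that differed by 2-fold or more. The largest ratios towards CRPR2 were those of *Muc16*, a membrane mucin (31.8 CPM (RPR2) and 515 CPM (CRPR2)), *Muc2*, the gel-forming mucin of the gut (59.2 and 764 CPM), and *Muc4*, a membrane mucin (7441 and 11172 CPM). Those towards RPR2 were *Wfdc2*, a protease inhibitor (6389 and 2413 CPM), *Scgb3a2*, a secretoglobin of club cells (103880 and 62868 CPM), and *Muc5b*, the main gel-forming mucin of the airway (11480 and 7146 CPM). The log2 ratios of *Reg3g* and *Tff2* towards RPR2 lay beside -1.40 for *Wfdc2* and -0.68 for *Muc5b*.

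Whether the genes were expressed in one cell was asked next. Within the airway-secretory gate, each cell was thinned to 50 transcripts, and the number of cells with both genes was set against the number that the share of each gene gives. *Reg3g* and *Retnla* met in fewer cells than that. In RPR2, 121 of 12960 cells had both, where 298 would be given (observed over expected, 0.407, 0.338 to 0.485). In CRPR2, 313 of 29629 cells had both, where 517 would be given (0.606, 0.541 to 0.677). In RPR2, 3.75% of the cells with *Reg3g* had *Retnla*, against 11.04% of those without, and in CRPR2 the shares were 12.9% and 22.0%.

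Among cells with many transcripts, the ratio was lower still. Without thinning, 1501 RPR2 cells had 5 or more *Reg3g* transcripts and 101 had 5 or more *Retnla* transcripts, and 1 cell had both (10.9 expected). In CRPR2, 1331 and 1883 cells passed this number, and 25 passed both (76.4 expected; ratio, 0.327). At 10 or more, 507 and 434 CRPR2 cells passed, and 1 cell passed both (6.71 expected). Ciliated-gate cells had the same direction, with a ratio of 0.561 (0.395 to 0.772) in RPR2 and 0.337 (0.260 to 0.428) in CRPR2.

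*Reg3g* and *Tff2* were found together. In RPR2, 1966 airway-secretory-gate cells had both, where 759 would be given (2.59, 2.48 to 2.70), and in CRPR2 1424, where 267 would be given (5.34, 5.07 to 5.62). Of the cells with *Reg3g*, 61.0% in RPR2 and 58.7% in CRPR2 had *Tff2*, against 11.1% and 6.73% of those without. At 10 or more transcripts of each, 83 RPR2 cells and 110 CRPR2 cells had both, where 4.38 and 3.03 would be given. *Retnla* and *Tff2* met in fewer cells than expected in RPR2 (0.451, 0.376 to 0.536) and in slightly more in CRPR2 (1.22, 1.14 to 1.31). In cells with no tumor or ciliated marker transcript, the ratio for *Reg3g* and *Retnla* was 0.601 (0.275 to 1.14, 9 cells with both) in RPR2 and 0.672 (0.485 to 0.907) in CRPR2, and that for *Reg3g* and *Tff2* was 4.69 and 8.32. For *Retnla* and *Tff2* it was 1.03 (0.532 to 1.79) and 1.17 (0.972 to 1.39) in these cells, so the lower number in RPR2 was not seen in them. The expected numbers for all pairs use the shares of the cells pooled, and the gate mixes kinds of cells differently in the sections. The part of this mixture in the ratios was not tested beyond this set. The size of the ratios is therefore not compared between the sections. *Tff1* had too few transcripts for its 3 pairs, with at most 6 cells with both in the airway-secretory gate.

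**Figure D2:**
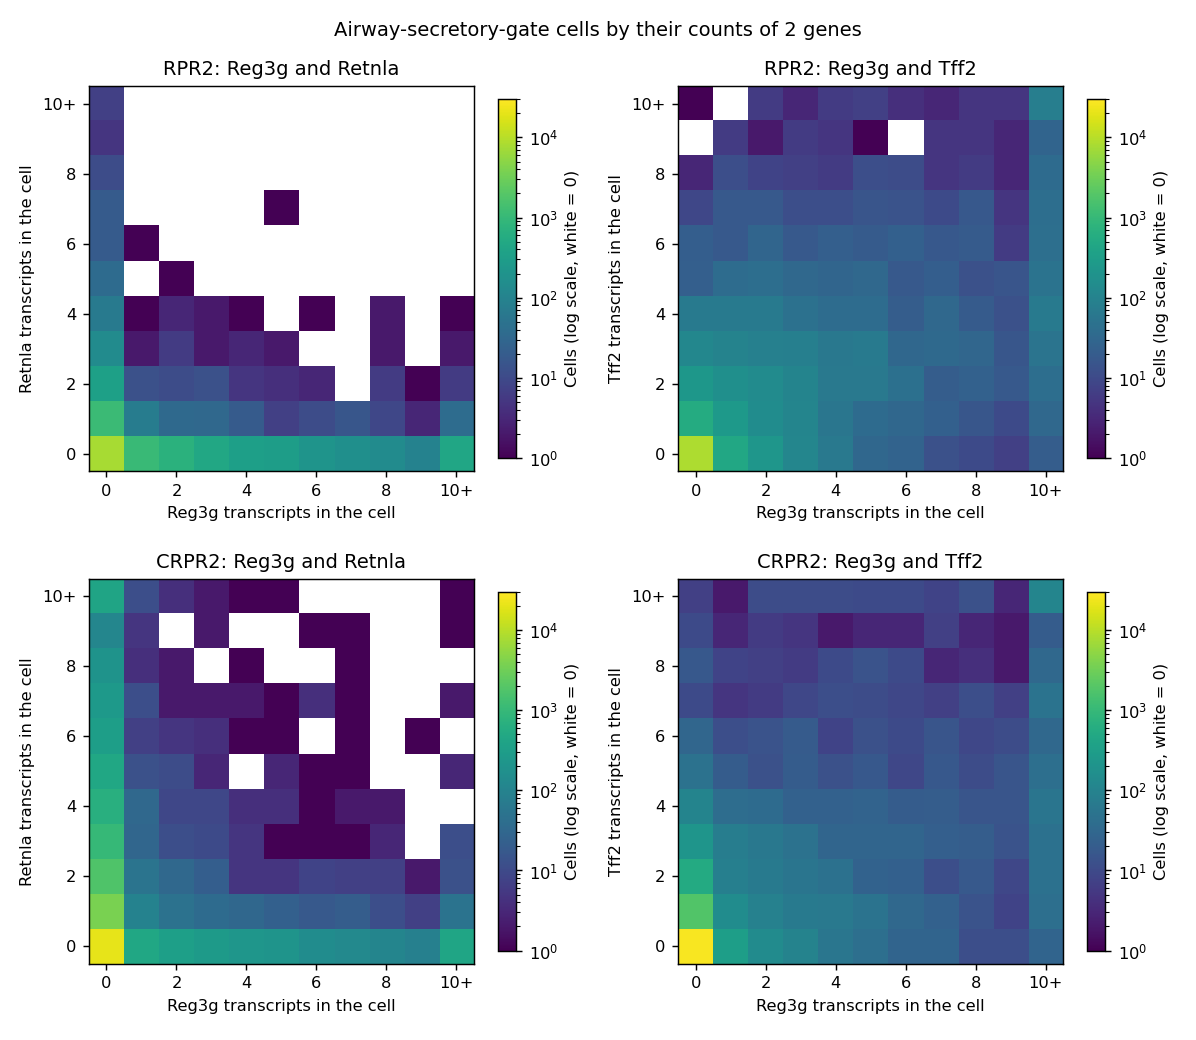
Number of airway-secretory-gate cells (color, log scale, white for no cell) by the transcripts of *Reg3g* (horizontal axis) and of *Retnla* or *Tff2* (vertical axis) in the same cell, for each section, with counts of 10 and more in the last row and column. Cells with many *Reg3g* and many *Retnla* transcripts lay along the 2 axes, with 1 cell in RPR2 at 5 or more of both, whereas 605 RPR2 cells and 556 CRPR2 cells had 5 or more of both *Reg3g* and *Tff2*.

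The 2 kinds of cells differed in other genes. Airway-secretory-gate cells with 3 or more *Reg3g* transcripts and no *Retnla* (2214 in RPR2 and 1612 in CRPR2, called *Reg3g* cells) were set against those with 3 or more *Retnla* transcripts and no *Reg3g* (307 and 3430, called *Retnla* cells). Of 172 genes that reached 500 CPM in either kind in each section, 22 were at least 2-fold higher in *Reg3g* cells of both sections and 19 in *Retnla* cells of both. From the 10 genes with the largest difference each way that held in both sections, 10 towards *Reg3g* cells and 9 towards *Retnla* cells are reported. They were chosen after the values were seen and are a description.

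Among the genes higher in *Reg3g* cells of both sections were *Agr2*, *Msln* and *Krt5*. *Agr2*, a chaperone of mucin folding in goblet cells, was at 7482 CPM in *Reg3g* cells and 306 CPM in *Retnla* cells of RPR2, and at 17231 CPM and 1066 CPM in CRPR2. *Msln*, which encodes mesothelin, was at 5886 CPM and 43.7 CPM in RPR2 and at 5298 CPM and 224 CPM in CRPR2. *Krt5*, the keratin of basal cells, was at 508 CPM in *Reg3g* cells and at no transcript in *Retnla* cells of RPR2, and at 4548 CPM and 12.6 CPM in CRPR2. *Aqp3*, a water channel of basal cells, *Upk1b*, a uroplakin, and *Gp2*, which encodes a glycoprotein that binds bacteria, were also higher in *Reg3g* cells of both sections. Another uroplakin, *Upk3a*, went the other way in CRPR2. Among cells with no tumor or ciliated marker transcript, it was at 54.0 CPM in *Reg3g* cells and 10924 CPM in *Retnla* cells of CRPR2. In RPR2 it was at 710 CPM and 281 CPM. *Tff2* itself was at 26816 CPM and 1026 CPM in RPR2 and at 25383 CPM and 3294 CPM in CRPR2. *Scgb3a1*, the secretoglobin of the proximal airway, was at 51344 CPM and 5849 CPM in RPR2 and at 55226 CPM and 22937 CPM in CRPR2. Not all mucins went this way: *Muc1*, a membrane mucin, was at 17425 CPM in *Reg3g* cells and 16370 CPM in *Retnla* cells of RPR2 and at 14191 CPM and 19486 CPM in CRPR2, and *Muc2* at 33.0 CPM and 65.5 CPM in RPR2 and at 55.6 CPM and 529 CPM in CRPR2.

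Among the genes higher in *Retnla* cells of both sections were *Sftpb* and *Sfta2*. *Sftpb*, a surfactant protein of AT2 and distal club cells, was at 5128 CPM in *Reg3g* cells and 42649 CPM in *Retnla* cells of RPR2, and at 3826 CPM and 34313 CPM in CRPR2. *Sfta2*, a surfactant-associated gene, was at 171 CPM and 2052 CPM in RPR2 and at 11.9 CPM and 2136 CPM in CRPR2. *Lamp3*, a protein of lamellar bodies, *Lrp2*, an endocytic receptor, and *Hc* were higher in *Retnla* cells of both sections. *Car3*, a carbonic anhydrase, was at 33.0 CPM and 4365 CPM in RPR2 and at 99.2 CPM and 782 CPM in CRPR2.

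Markers of other gates differed between the 2 kinds of cells as well. Of the 6 ciliated markers, 5 in RPR2 and 6 in CRPR2 were higher in *Reg3g* cells. Their summed level was 58058 CPM in *Reg3g* cells and 40881 CPM in *Retnla* cells of RPR2, and 49682 CPM and 29396 CPM in CRPR2. Of the 6 neutrophil markers, 4 in RPR2 and 3 in CRPR2 were higher in *Reg3g* cells (summed, 1995 CPM and 567 CPM in RPR2 and 2278 CPM and 1238 CPM in CRPR2). The 5 AT2 markers were all higher in *Retnla* cells of both sections, with a summed level of 21728 CPM in *Reg3g* cells and 82417 CPM in *Retnla* cells of RPR2 and of 29403 CPM and 72421 CPM in CRPR2. Of the 12 endothelial markers, 9 in RPR2 and 11 in CRPR2 were higher in *Retnla* cells (summed, 2292 CPM and 8185 CPM in RPR2 and 3012 CPM and 8236 CPM in CRPR2), with *Calcrl* among the others in both sections. *Kdr*, a receptor of endothelial cells, was the highest of the 12 in *Retnla* cells, at 303 CPM and 5413 CPM in RPR2 and at 198 CPM and 3300 CPM in CRPR2. In cells with no tumor or ciliated marker transcript, 6 of the 12 in RPR2 and 7 in CRPR2 were higher in *Retnla* cells. Of genes of AT1 cells, *Ager* was at 165 CPM and 1812 CPM in RPR2 and at 238 CPM and 3317 CPM in CRPR2, and *Aqp5* at 3113 CPM and 3427 CPM in RPR2 and at 3611 CPM and 4047 CPM in CRPR2. The 5 tumor markers were all higher in *Reg3g* cells of RPR2 (summed, 1151 CPM and 524 CPM) and all higher in *Retnla* cells of CRPR2 (1044 CPM and 3218 CPM). *Mki67*, a gene of cycling cells, was at 445 CPM and 393 CPM in RPR2 and at 615 CPM and 4214 CPM in CRPR2. The part of other cells in these differences was not tested.

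*Scgb3a2* differed little between the 2 kinds of cells, at 94969 CPM in *Reg3g* cells and 104701 CPM in *Retnla* cells of RPR2 and at 63949 CPM and 76288 CPM in CRPR2. Among cells with at least 4 transcripts of *Scgb3a1*, *Scgb3a2* and *Muc5b*, 18 of these 19 genes kept their direction in both sections, and the exception was *Car3*. Among cells with no tumor or ciliated marker transcript, 18 of 19 did, with 97 *Reg3g* cells and 25 *Retnla* cells in RPR2, and the exception was *Hc*. The first of these 2 sets held 2207 of the 2214 *Reg3g* cells and 298 of the 307 *Retnla* cells of RPR2. In CRPR2 it held 1600 of 1612 and 3345 of 3430. It was thus nearly the same cells in which the genes were chosen, and the kept direction is no separate support. The second set was also a part of those cells. In its 25 *Retnla* cells of RPR2, *Car3* was at 40730 CPM and *Retn* at 3371 CPM, both at 0 CPM in its *Reg3g* cells. These 2 genes are abundant in adipocytes, and the part of adipocytes in this set was not tested. In CRPR2, *Car3* was at 4293 CPM and *Retn* at 1334 CPM in its *Retnla* cells. *Scgb3a1* was at 3371 CPM in the *Retnla* cells and 60231 CPM in the *Reg3g* cells of this set in RPR2, and *Scgb3a2* at 94663 and 99067 CPM.

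**Figure D3:**
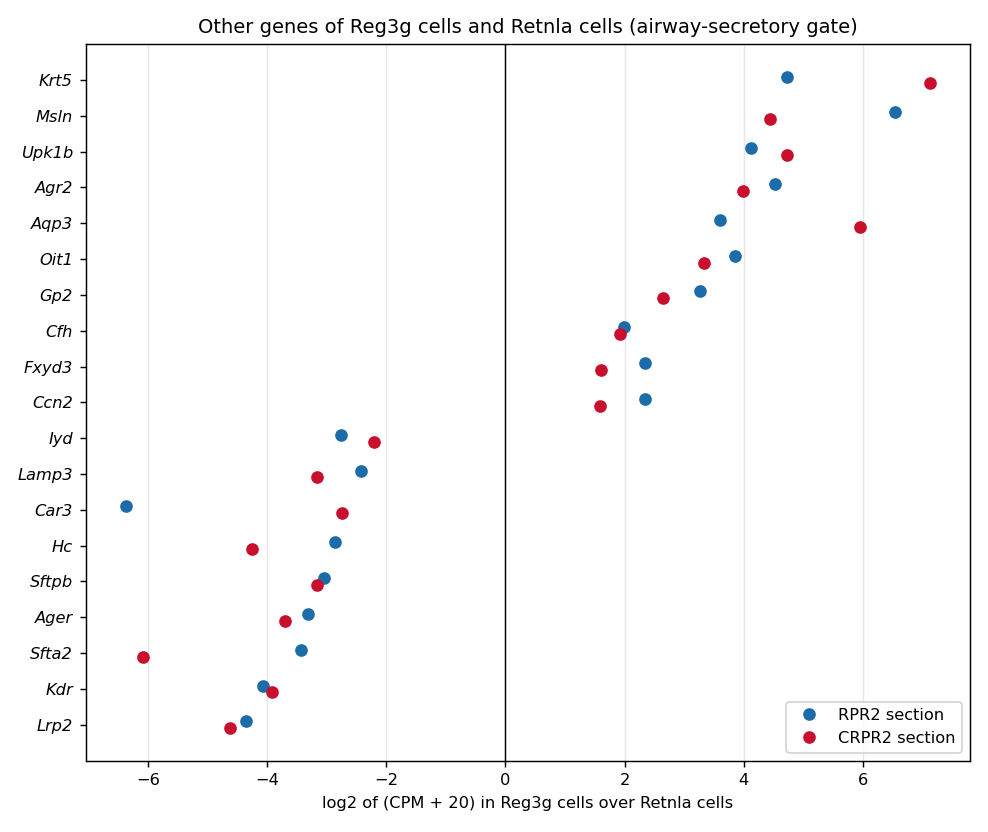
Log2 ratio of CPM (20 CPM added to each) in *Reg3g* cells over *Retnla* cells of the airway-secretory gate, for 10 genes higher in *Reg3g* cells and 9 higher in *Retnla* cells of both sections (RPR2, blue, and CRPR2, red). *Agr2*, *Msln* and *Krt5* lie to the right, towards *Reg3g* cells, and *Sftpb*, *Sfta2* and *Lrp2* to the left, towards *Retnla* cells, in both sections.

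Over 10 classes of both sections (20 points, which share libraries within a section), the panel genes with the profiles most like *Reg3g* were *Agr2* (Pearson r, 0.92), *Tff2* (0.92), *Anxa8* (0.88), *Tmem212* (0.87) and *Ccdc153* (0.86), and those most like *Tff2* were *Agr2* (0.97), *Muc5b* (0.95), *Scgb3a2* (0.94), *Aqp4* (0.93) and *Scgb3a1* (0.92). The profiles most like *Retnla* were less close, with *Runx1* at 0.76, *Epsti1* at 0.64, *Krt13* at 0.61, *Krt5* at 0.55 and *Slc25a37* at 0.49. For *Tff1*, *Cd8a* (0.89), *Prf1* (0.85), *Rps18* (0.84), *Ctla4* (0.83) and *Rpl35* (0.82) came first, from counts near background outside the T cell gate. Over all 443609 thinned cells of both sections, the genes most often in one cell with *Reg3g* for their frequency were *Krt5*, *Tff2*, *Agr2*, *Muc16* and *Aqp3*. Within RPR2, they were found with *Reg3g* in 8.87, 13.1, 10.7, 0.992 (0.654 to 1.44) and 4.90 times the expected number of cells, and within CRPR2 in 32.0, 22.2, 27.1, 30.5 and 20.6 times. *Muc16* thus had its place through CRPR2 alone. For *Tff2* they were *Reg3g*, *Agr2* (12.4 times in RPR2 and 21.3 in CRPR2), *Krt5* (7.20 and 19.1), *Muc16* (0.597, 0.308 to 1.04, and 21.2) and *Gp2* (10.9 and 9.26). For *Retnla* they were *Folr2* (11.2 and 3.36) and *F13a1* (7.55 and 2.87), genes of macrophages, and *Muc5ac* (2.66 and 3.58), *Muc5b* (2.28 and 3.70) and *Ccdc153* (2.30 and 6.24), genes of goblet and ciliated cells. No gene shared 200 cells with *Tff1*.

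Most macrophage-gate cells had no *Retnla* transcript. In RPR2, 559 of 2824 cells (19.8%) had a transcript, 448 had 2 or more and 330 had 5 or more, up to 49 in a cell, while 2265 had none. In CRPR2, 758 of 7876 cells (9.62%) had a transcript, 444 had 2 or more and 271 had 5 or more, up to 43, while 7118 had none. The number of cells with 5 or more was thus close in the sections (330 and 271), while both the gate and the section were larger in CRPR2. Of all kept cells, they were 330 of 152915 in RPR2 and 271 of 340609 in CRPR2, a lower share in CRPR2. The log2 ratio of -1.99 in this class is a ratio over all macrophage-gate cells.

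Macrophage-gate cells with 5 or more *Retnla* transcripts, set against those with none, had more *Folr2*, *Lyve1* and *F13a1* and less *Marco*, *Krt79* and *Atp6v0d2*. *Folr2*, a folate receptor, was at 21436 CPM and 4000 CPM in RPR2 and at 23002 CPM and 1992 CPM in CRPR2, and *Lyve1* at 17187 CPM and 2559 CPM in RPR2 and at 15309 CPM and 1447 CPM in CRPR2. *F13a1*, which encodes a subunit of coagulation factor XIII, was at 54932 CPM and 13450 CPM in RPR2 and at 53596 CPM and 6024 CPM in CRPR2. *Marco*, a scavenger receptor of alveolar macrophages, was at 71.2 CPM and 6654 CPM in RPR2 and at 50.1 CPM and 1334 CPM in CRPR2, *Krt79* at 23.7 CPM and 10849 CPM in RPR2 and at 25.1 CPM and 4467 CPM in CRPR2, and *Atp6v0d2* at 285 CPM and 16563 CPM in RPR2 and at 376 CPM and 24666 CPM in CRPR2. *Mrc1*, the mannose receptor found on both kinds, was at 32760 CPM and 25430 CPM in RPR2 and at 27712 CPM and 18511 CPM in CRPR2. *Folr2*, *F13a1*, *Mrc1*, *Marco* and *Krt79* are also markers of this gate. *Pi16*, a gene of adventitial fibroblasts, moved with *Retnla* in these cells (6386 CPM and 1308 CPM in RPR2 and 4911 CPM and 697 CPM in CRPR2), and the part of fibroblasts in the counts was not tested.

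**Figure D4:**
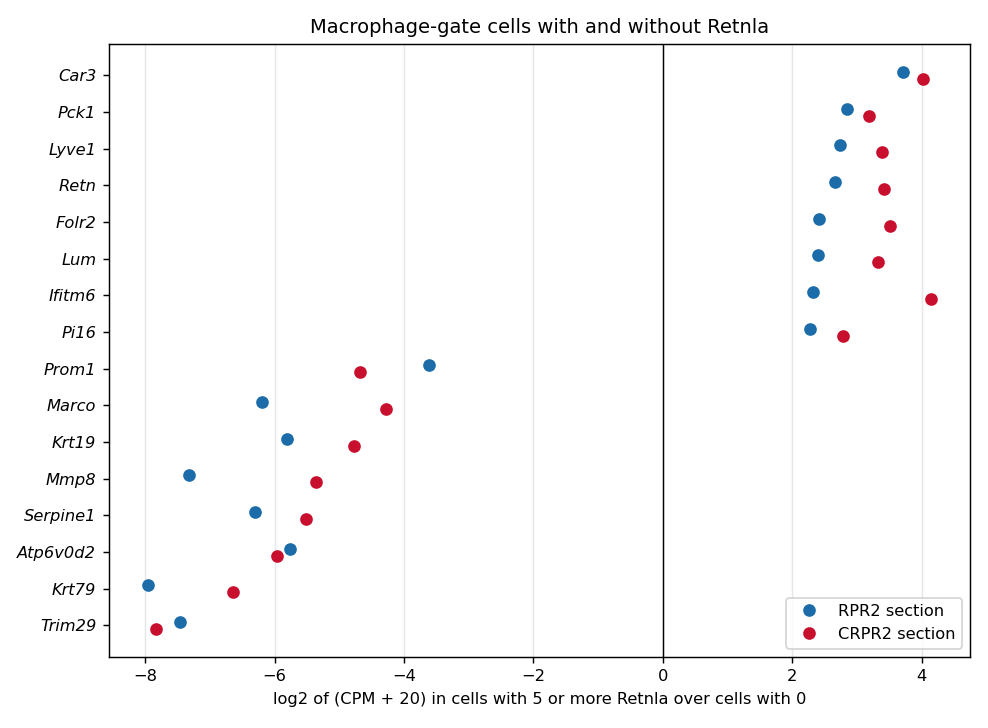
Log2 ratio of CPM (20 CPM added to each) in macrophage-gate cells with 5 or more *Retnla* transcripts over those with none, for the 8 genes with the largest difference each way that held in both sections (RPR2, blue, and CRPR2, red). *Folr2* and *Lyve1* lie to the right and *Krt79*, *Atp6v0d2* and *Marco* to the left in both sections.

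The spread of the genes into tumor cells was examined in the tumor gate. *Reg3g* stood at 1554 CPM (1495 to 1616) in RPR2 and 131 CPM (126 to 136) in CRPR2, with a log2 ratio of CRPR2 over RPR2 of -3.57 (-3.65 to -3.49). *Tff2* stood at 428 CPM and 175 CPM (-1.29, -1.41 to -1.17), *Retnla* at 250 CPM and 764 CPM (1.61, 1.47 to 1.75), and *Tff1* at 9.75 CPM and 11.5 CPM (0.24, -0.49 to 1.07). These ratios had the directions seen in the airway-secretory gate for *Reg3g*, *Tff2* and *Retnla*. Of 288 genes that reached 100 CPM in either section in this gate, 8.33% differed by 2-fold or more towards RPR2 and 6.25% towards CRPR2. Genes that passed this minimum through 1 section alone are among them too.

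Few tumor-gate cells had the transcripts. In RPR2, 8.34% had *Reg3g*, 3.07% *Tff2* and 2.13% *Retnla*, against 1.00%, 0.140% and 1.15% of endothelial-gate cells, at median depths of 111 and 102 transcripts. Mural-gate cells of RPR2 had *Reg3g* in 3.11% and *Tff2* in 1.23%, and fibroblast-gate cells in 2.24% and 0.871%. In RPR2 tumor-gate cells with no airway marker transcript (defined below), the shares were 2.06% and 0.258%. No expression of these 2 genes by RPR2 tumor cells is therefore read from the shares of the whole gate. In CRPR2, 0.820% had *Reg3g* (0.776 to 0.865), which is below the 1.11% of endothelial-gate cells and within the interval of the 0.738% of AT2-gate cells (0.641 to 0.845), so no expression is read from this share, although 85 cells had 5 or more transcripts. In the same gate 1.49% had *Tff2* and 5.80% *Retnla*, against 0.334% and 3.84% of endothelial-gate cells, at 108 and 103 transcripts. For *Tff2*, the 1.49% lay within the interval of the 1.58% of AT2-gate cells of CRPR2 (1.44 to 1.74). Fibroblast-gate cells had 1.21% and mural-gate cells 1.02%, so no expression of *Tff2* by CRPR2 tumor cells is read from this share. In RPR2, the share in AT2-gate cells was 0.310%. For *Retnla*, endothelial-gate cells were the only class of at least 200 cells with a lower share than tumor-gate cells, in both sections. Mural-gate cells had 4.03% (RPR2) and 8.89% (CRPR2), and AT2-gate cells 3.74% and 16.2%. No expression of *Retnla* by tumor cells is therefore read from these shares. In RPR2, 632 of the 1150 tumor-gate cells with *Reg3g* had a single transcript and 122 had 5 or more, and the 1% of cells with the most held 37.4% of the transcripts. In CRPR2, 6649 of the 9321 tumor-gate cells with *Retnla* had a single transcript and 290 had 5 or more.

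The level of each of these 3 genes in tumor-gate cells was higher with more airway marker transcripts (of the airway-secretory and ciliated gates, *Krt5* and *Aqp3*) in the same cell. In RPR2, *Reg3g* stood at 225 CPM in the 4652 cells with no airway marker transcript, at 730 CPM in cells with 2 to 3, at 4415 CPM in cells with 8 to 15, and at 11503 CPM in the 427 cells with 16 or more, close to the airway-secretory gate. These 427 cells, 3.10% of the gate, held 36.8% of its *Reg3g* transcripts. In CRPR2, *Retnla* went from 116 CPM in the 46372 cells with no airway marker transcript to 983.7 CPM with 4 to 7 and 3517 CPM in the 5350 cells with 16 or more. *Tff2* went from 25.2 CPM to 4243 CPM in RPR2 and from 13.7 CPM to 1147 CPM in CRPR2, and *Reg3g* in CRPR2 from 25.1 CPM to 850 CPM. Cells with more airway marker transcripts also had more transcripts in all (median, 97 and 179 in RPR2 for 0 and for 16 or more). In tumor-gate cells with no airway marker transcript, the log2 ratio of CRPR2 over RPR2 was -3.16 (-3.55 to -2.77) for *Reg3g*. It was -0.88 (-1.78 to 0.15) for *Tff2* and 1.70 (1.00 to 2.49) for *Retnla*. The interval of *Tff2* held 0. *Reg3g* in these RPR2 cells (225 CPM) lay between endothelial-gate (112 CPM) and fibroblast-gate cells (302 CPM). In CRPR2 (25.1 CPM) it lay below AT2-gate cells (96.2 CPM). *Retnla* (35.7 CPM from 17 transcripts, and 116 CPM) lay below endothelial-gate cells (169 and 469 CPM). Those classes were not limited to cells without airway marker transcripts. No expression by tumor cells is read from these ratios.

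**Figure D5:**
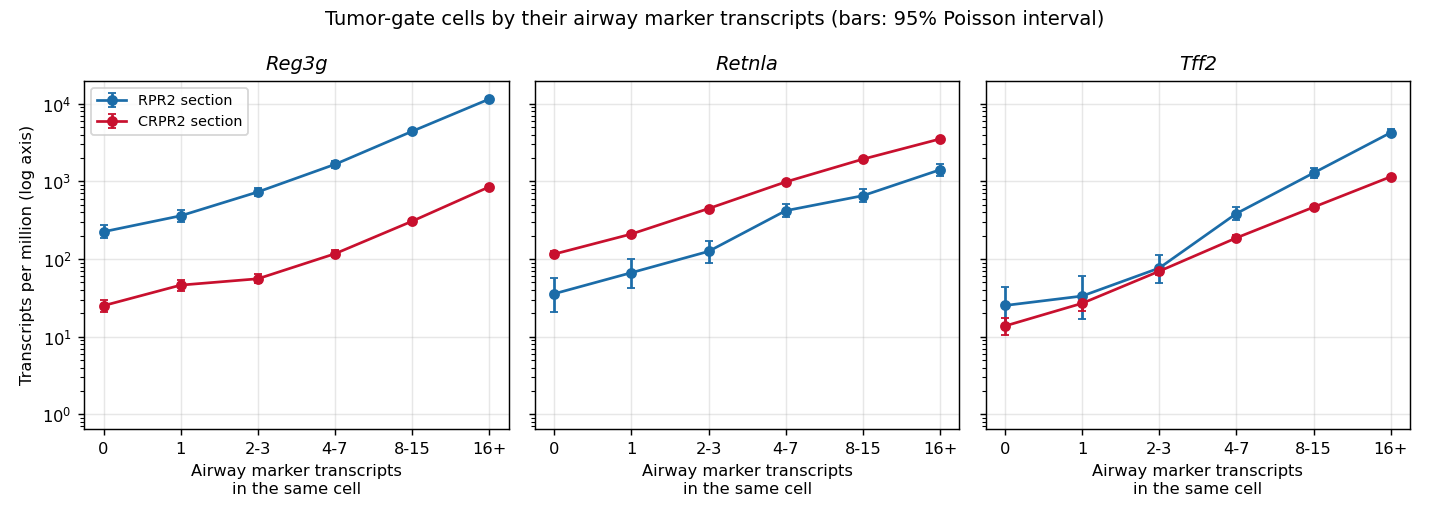
Level of *Reg3g*, *Retnla* and *Tff2* (CPM, log axis, with 95% Poisson intervals) in tumor-gate cells grouped by the number of airway marker transcripts in the same cell, for the RPR2 section (blue) and the CRPR2 section (red). Each gene was higher in the cells with 16 or more than in those with 0, *Reg3g* in RPR2 at 11503 and 225 CPM.

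The number of tumor marker transcripts in the cell went the other way. In RPR2, *Reg3g* stood at 2875 CPM in cells with exactly 4 tumor marker transcripts (1392 cells, at the edge of the gate) and at 1108 CPM in those with 11 or more. Cells just outside the gate, with 3, had 3862 CPM. In CRPR2, *Retnla* stood at 1588 CPM in cells with 3, 1228 CPM with 4 and 536 CPM with 11 or more. Airway marker transcripts fell as well, from 43644 CPM to 18640 CPM in RPR2 between cells with 4 and with 11 or more tumor marker transcripts, and from 43903 CPM to 21188 CPM in CRPR2. Their median number per cell was the same in all these groups, 1 in RPR2 and 2 in CRPR2. Counted per cell, *Reg3g* fell less than in CPM, with 333 transcripts in the 1392 RPR2 cells with 4 and 817 in the 4744 with 11 or more. The part of depth in these differences in CPM was not tested.

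The number of *Reg3g* transcripts per 100 *Scgb3a2* transcripts was used to compare classes within a section, since probes of different genes may not be equally efficient. *Scgb3a2* is itself a marker of the airway-secretory gate, so the choice of cells enters this ratio, and its part was not tested. In RPR2 it was 11.7 (11.5 to 11.9) in the airway-secretory gate, 12.9 (12.4 to 13.4) in the tumor gate, 14.5 in the ciliated gate and 10.5 (9.74 to 11.4) in the endothelial gate, but 1.68 in the AT2 gate. In CRPR2 it was 7.55 (7.43 to 7.67) in the airway-secretory gate, 26.7 in the ciliated gate and 6.02 in the endothelial gate, but 0.983 (0.944 to 1.02) in the tumor gate and 1.02 in the AT2 gate. For *Retnla*, it was 2.25 (2.18 to 2.32) in the airway-secretory gate and 2.08 (1.88 to 2.29) in the tumor gate of RPR2, and 13.1 and 5.74 (5.65 to 5.84) in CRPR2. For *Tff2*, it was 8.75 and 3.55 in RPR2 and 6.61 and 1.32 in CRPR2. In the endothelial and AT2 gates, the ratio for *Retnla* was 15.9 and 9.47 in RPR2 and 20.1 and 31.2 in CRPR2. For *Tff2* in these 2 gates, it was 1.29 and 0.541 in RPR2 and 1.54 and 1.83 in CRPR2. In both sections, the endothelial ratio thus lay below the airway-secretory ratio for *Reg3g* and *Tff2* and above it for *Retnla*. It came closest for *Reg3g*, with an interval in CRPR2 of 5.54 to 6.54. For *Retnla* in CRPR2, the intervals were 19.1 to 21.1 (endothelial) and 12.9 to 13.2 (airway-secretory). The tumor gate of RPR2 thus lay slightly above the airway-secretory ratio for *Reg3g*, with overlapping intervals for *Retnla* and below it for *Tff2*, and that of CRPR2 lay below it for all 3.

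Within tumor-gate cells, *Reg3g* and *Tff2* again met in more cells than expected. After thinning, 106 RPR2 cells had both, where 10.96 would be given (9.67, 7.92 to 11.7), and 107 CRPR2 cells, where 5.04 would be given (21.2, 17.4 to 25.6). Most tumor-gate cells with *Reg3g* had no *Tff2*: 16.1% in RPR2 and 14.7% in CRPR2 had it. In the airway-secretory gate, these shares were 61.0% and 58.7%. *Reg3g* and *Retnla*, which met in fewer airway-secretory-gate cells than expected, met in more tumor-gate cells, 14 in RPR2 (2.09, 1.14 to 3.50) and 46 in CRPR2 (2.12, 1.55 to 2.83). *Retnla* and *Tff2* did so too, with 9 cells in RPR2 (4.04) and 129 in CRPR2 (4.03). All of these were a small share of the 13187 and 155351 tumor-gate cells that could be thinned. The expected numbers use the shares of the whole gate. This gate mixes cells with 0 and with 16 or more airway marker transcripts, over which all 3 genes rose. The part of this mixture in the ratios was not tested, so they are not read as a change in co-expression.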

How the data were processed

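The deposited matrices hold raw transcript counts, in whole numbers, of each feature in each segmented cell (541 features, of which 479 are genes and 20 negative control probes). Per the methods, cells were segmented by nuclear expansion and the panel joined a mouse tissue atlas panel with added genes. Seurat 4.4.0 is named in the submitters' processing notes. The genes and marker lists were chosen with earlier results of these data known.

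Cells below 20 gene transcripts (1903 in RPR2, 2236 in CRPR2) were dropped. No annotation of cells was used and no doublet caller was run. A cell with at least 4 transcripts of the tumor markers was placed in the tumor gate, and any other in the class with at least 4 marker transcripts and more than any other class. Ties (mixed) and the rest (ungated) were not analysed as classes. Of the classes, 13 had at least 3 markers on the panel, which left out basal, AT1, mesothelial, B, dendritic and mast cells and adipocytes. Of the cells of the tumor gate, 1392 in RPR2 and 21841 in CRPR2 were exactly at 4. Depth was 16313950 gene transcripts in RPR2 and 37348565 in CRPR2.

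Sums have exact Poisson intervals, shares exact Clopper-Pearson intervals and ratios exact conditional intervals, at 95%, all for counting error only. For co-detection and shares, cells were thinned to 50 transcripts without replacement (15856 RPR2 and 34059 CRPR2 cells were shallower and left out). The ratio of observed to expected cells has an interval from the observed number alone. Genes named are the 4 members, *Tff3*, gate markers, members of the secretion list with the 3 largest ratios each way, and the 5 most alike and 5 most often co-detected genes of each member (at least 200 cells with both; classes of at least 200 cells; 10 CPM added before log2). Genes of the comparisons between *Reg3g* and *Retnla* cells and within macrophage- and fibroblast-gate cells were named after their values were seen, and 1 gene among those of the first comparison is not reported here. Alternatives were a minimum of 50 transcripts, gates at 3 and 6, classes assigned by multinomial likelihood over all genes but the members, means per cell, thinning to 30, to 100 or none, and positivity at 2 transcripts. Alternatives added after seeing the data were airway-secretory-gate cells with no tumor or ciliated marker transcript, and those with at least 4 transcripts of *Scgb3a1*, *Scgb3a2* and *Muc5b*. Ratios, thinning, gating and co-detection were tested on simulated data. Python 3.11.15, numpy 2.4.6 and scipy 1.17.1 were used.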

Additional observations from a re-analysis of the deposited data

Results flagged for a closer look

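Between the sections, 3 of the genes had ratios of opposite direction in different classes. The log2 ratio of CRPR2 over RPR2 for *Retnla* was 3.24 in ciliated-gate cells and -1.99 in macrophage-gate cells, a difference of 5.23. For *Reg3g* it was 0.73 in ciliated-gate cells and -3.57 in tumor-gate cells, a difference of 4.30, and the value in tumor-gate cells is the one for which *Reg3g* was chosen, so it is a description. For *Tff2* it was 0.19 in ciliated-gate cells and -1.29 in tumor-gate cells, a difference of 1.48, and it was 2.47 in AT2-gate cells. With 1 section per genotype, these differences were not tested. The ciliated gate held 8762 cells in RPR2 and 3199 in CRPR2, and its cells carried secretory markers in both sections (*Scgb3a2*, 37681 and 13276 transcripts), whose part in the ratios was not tested.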

How the results depend on the processing

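No paired analysis was possible because each genotype had 1 section. Of the ratios between sections in airway-secretory- and tumor-gate cells and the co-detection of *Reg3g* and *Retnla*, none whose main interval excluded no difference changed direction under the alternatives run for it. Those in ciliated-, macrophage- and AT2-gate cells were computed in the main setting alone. In all, 21 of 58 values moved outside the counting interval, as did 7 of 11 under the alternatives added after seeing the data. In airway-secretory-gate cells, the log2 ratio of CRPR2 over RPR2 with gates at 3, gates at 6, likelihood classes, means per cell, cells without tumor or ciliated markers, and cells with at least 4 transcripts of *Scgb3a1*, *Scgb3a2* and *Muc5b* was, in this order, -1.16, -1.58, -2.00, -1.42, -1.64 and -1.23 for *Reg3g*, 1.94, 1.69, 1.42, 1.75, 1.40 and 1.94 for *Retnla*, and -0.97, -1.31, -1.46, -1.19, -0.79 and -1.01 for *Tff2*. In tumor-gate cells, likelihood classes gave -3.42 for *Reg3g* and -1.11 for *Tff2*, and cells without an airway marker transcript gave -3.16 and -0.88, the latter with an interval that held 0 (-1.78 to 0.15). Observed over expected co-detection of *Reg3g* and *Retnla* in RPR2 was 0.510 with no thinning, 0.1999 with positivity at 2 transcripts and 0.601 in cells without tumor or ciliated markers. In CRPR2 it was 0.808 with no thinning, 0.382 with positivity at 2 transcripts and 0.754 with likelihood classes. The causes were not tested. In cells without tumor or ciliated markers, *Tff1* had no transcript in RPR2 and gave no ratio. Depth limits *Tff1* (151 and 418 transcripts in all), the 307 *Retnla* cells of RPR2 and the 121 RPR2 cells with both *Reg3g* and *Retnla*.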

Other observations

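Fibroblast-gate cells held a small group with many *Retnla* transcripts, 113 of 13661 cells with 5 or more in RPR2 (up to 53 in a cell) and 109 of 15974 in CRPR2 (up to 42). These cells carried macrophage markers, with a median of 4 transcripts in each section, against 0 in the 12751 and 14505 fibroblast-gate cells with no *Retnla*, and 63 RPR2 cells and 56 CRPR2 cells had 4 or more. *F13a1* was at 18599 CPM and 1121 CPM in RPR2 and at 16569 CPM and 1624 CPM in CRPR2. *Itga8*, a gene of alveolar fibroblasts, was lower in them, at 1733 CPM and 25927 CPM in RPR2 and at 1668 CPM and 8994 CPM in CRPR2.

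*Car3* and *Retn*, genes abundant in adipocytes (a type with no listed marker on this panel), moved with *Retnla* in macrophage-gate cells. *Car3* was at 5223 CPM in macrophage-gate cells with 5 or more *Retnla* transcripts and 382 CPM in those with none in RPR2, and at 13856 CPM and 835 CPM in CRPR2. *Retn*, a relative of *Retnla* in sequence, was at 665 CPM and 88.3 CPM in RPR2 and at 2456 CPM and 211 CPM in CRPR2. Macrophage-gate cells with 3 or more *Car3* transcripts held 4.74% of the *Retnla* transcripts of this gate in RPR2 and 16.9% in CRPR2. In the airway-secretory gate, such cells held 1.63% of the *Retnla* transcripts in RPR2 and 0.327% in CRPR2, and without them the level was 2312 CPM and 8320 CPM.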
